A study of Mus musculus with 19 samples.

Results

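The 7 genes described here encode an exchange factor, GTPases and kinases of the route through Ras to the extracellular signal-regulated kinase ERK. They are Rasgrf1, Hras, Nras, Braf, Map2k1, Map2k2 and Mapk3. They were taken by symbol from tables of 20436 genes, without use of their values, though earlier results of these data were known. The tables hold RNA-seq and ribosome profiling of hippocampal slices from wild-type male mice, which the sample labels place at postnatal day 28 to 42. Slices received either vehicle (basal) or dihydroxyphenylglycine (DHPG), an agonist of group I metabotropic glutamate receptors, at 100 µM for 5 min, and both groups were then exposed to cycloheximide at 100 µg/ml, which halts elongating ribosomes. RNA-seq gave 4 basal and 5 DHPG libraries, and ribosome-protected fragments (RPFs) gave 5 basal and 5 DHPG libraries. Slices of several mice were pooled for each replicate, so the spread between libraries is one between pools and not between animals.

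In this pathway an exchange factor loads Ras with GTP, Ras-GTP recruits a Raf kinase to the membrane, Raf phosphorylates the MEK kinases, and MEK phosphorylates ERK. In the hippocampus ERK acts downstream of group I metabotropic glutamate receptors and is required for a form of long-term depression that depends on protein synthesis. Its activation is by phosphorylation, which neither RNA-seq nor ribosome profiling measures.

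All 7 genes were counted in every library. RNA libraries held 4870813 to 7793244 counts (median 6100633), and RPF libraries held 5692064 to 22092434. The lowest single count of any of the 7 genes was 98, for Nras in the RPF library of DHPG replicate 1, and the highest was 13294, for Rasgrf1 in the RPF library of basal replicate 3. The levels of Nras thus carried the largest counting error. Marker lists of 6 genes each for CA1, CA3 and dentate gyrus were looked up, and no marker of these lists was at 0 in all libraries. The same held for markers of neurons, astrocytes, oligodendrocytes, microglia, endothelium and thalamus, so presence alone does not set hippocampus apart from other brain tissue. The samples are thus whole tissue, where fewer cells of a type and less RNA per cell cannot be told apart.

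The MEK members are close paralogs, and short fragments from them may be hard to assign. A stretch of 30 coding bases of each, about the size of 1 footprint, is shown because an RPF from it could not be placed. Sequences are from the mm10 genome with GENCODE models, 5′ to 3′ on the coding strand, in lower case throughout since no base differs between both paralogs.
Map2k1, coding bases 391 to 420, chr9:64212602-64212631, minus strand: ggggccttctacagcgacggcgagatcagc
Map2k2, coding bases 403 to 432, chr10:81115125-81115154, plus strand: ggggccttctacagcgacggcgagatcagc
No window of 30 bases in the trimmed coding sequence of Hras, Nras or Rasgrf1 occurred in the transcript of another gene. Over the whole Nras transcript, on which RNA was counted, 109 of 4441 windows (2.45%) were shared with other genes, 55 of them with Timm17a. The longest identical run of the MEK pair was 56 bases, and over their whole trimmed coding sequences 36 of 1093 windows of Map2k1 (3.29%) and 36 of 1117 windows of Map2k2 (3.22%) were the same in the other gene. For Mapk3, 76 of 1054 windows (7.21%) were also found in other transcripts, 43 of them in the pseudogene Gm15546. For Braf, 90 of 2326 (3.87%) were shared, 88 of them with Gm18189. The authors kept only reads that mapped uniquely to the genome before counting. A read that fitted more than 1 place equally well would thus have been dropped. How many were lost for each gene cannot be recovered from the counts.

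The genes lie on 5 chromosomes of mm10. Rasgrf1, an exchange factor for Ras that responds to calcium and is abundant in neurons, spans chr9:89909908-90026977 on the plus strand. The GTPases are Hras (chr7:141189105-141194005, minus strand) and Nras (chr3:103058285-103067914, plus strand). Braf, a Raf kinase, lies at chr6:39603237-39725463 on the minus strand, and 146 bases of its exons overlap Ndufb2 on the opposite strand, outside its coding sequence. MEK1 is encoded by Map2k1 (chr9:64185770-64253631, minus strand) and MEK2 by Map2k2 (chr10:81105915-81133975, plus strand). Mapk3, the gene of ERK1, spans chr7:126759601-126765819 on the plus strand. Their transcripts differ widely in how much is coding. The coding part is 92.6% of the Rasgrf1 transcript of 4092 bases, but 12.8% of the Nras transcript of 4470 bases and 20.2% of the Hras transcript of 2828 bases. It is 24.8% for Braf, 48.5% for Map2k1, 50.1% for Map2k2 and 63.5% for Mapk3. These shares matter for the comparisons of RPF with RNA, since RPFs were counted on coding sequence and RNA on whole transcripts.

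Per length, Rasgrf1 and Map2k1 were the most abundant of the 7 RNAs in basal slices. Levels are given per length in TPM, a count divided by length and scaled to the same total in every library, computed from the deposited counts and the lengths above. Rasgrf1 RNA was at 476 ± 22.8 TPM (SD, n = 4) and Map2k1 RNA at 398 ± 62.3 TPM, and their libraries overlapped, with Rasgrf1 above Map2k1 in 3 of 4 libraries. Mapk3 followed at 197 ± 29.3 TPM, then Hras at 123.7 ± 12.3 TPM, Map2k2 at 101.1 ± 11.1 TPM, Braf at 27.6 ± 5.45 TPM and Nras at 12.9 ± 2.35 TPM. From Map2k1 downwards, each gene was above the next in 4 of 4 libraries. Among all genes tested, the RNA of Rasgrf1 ranked at the percentile 97.4 and that of Nras at 31.4, so the 7 RNAs covered much of the range of hippocampal expression.

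In ribosome footprints the order per length was different. Map2k1 led with 403 ± 35.04 RPF TPM (SD, n = 5), followed by Rasgrf1 at 159 ± 7.24 TPM, and the 5 basal libraries of these genes did not overlap. Hras at 98.2 ± 13.4 TPM and Mapk3 at 91.9 ± 6.89 TPM overlapped, with Hras higher in 3 of 5 libraries. Map2k2 at 46.2 ± 3.58 TPM was above Nras at 36.5 ± 4.56 TPM in 4 of 5 libraries, and Nras overlapped Braf, which was at 36.3 ± 1.42 TPM. Per length, Nras was the lowest of the 7 in RNA and stood beside Braf in RPF. These orders rest on the lengths assumed. In counts scaled to library size without length (CPM), basal footprints averaged 567 for Rasgrf1 and 433 for Map2k1. On that scale Nras was the lowest of the 7 in both assays.

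**Figure D1:**
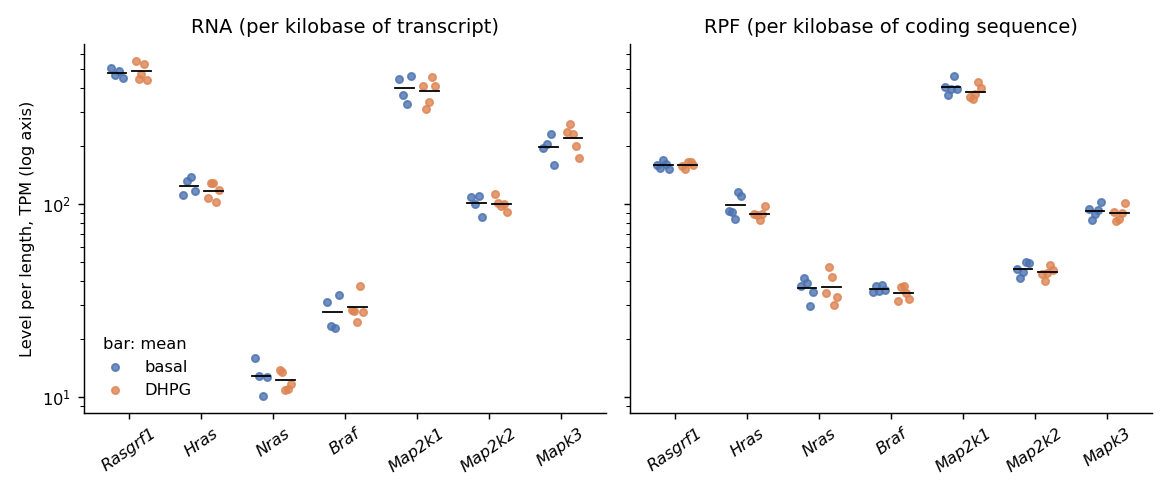
Level per length (TPM, log axis) of each gene in every library, RNA on the left and RPF on the right, with basal libraries in blue, DHPG libraries in orange and a bar at the mean of each group. Rasgrf1 and Map2k1 lie highest in RNA, Map2k1 alone lies highest in RPF, and the basal and DHPG points of each gene overlap.

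The pair of MEK genes differed more in footprints than in RNA. Per length, Map2k1 RNA was 2.99 to 5.34 times Map2k2 RNA in the 4 basal libraries (mean 4.01 ± 0.993), while Map2k1 RPFs were 7.95 to 9.23 times Map2k2 RPFs in the 5 basal libraries (mean 8.73 ± 0.475). Within replicates, the log2 ratio of RPF to RNA of Map2k1 exceeded that of Map2k2 by 1.11, 1.28, 1.57 and 0.789 in replicates 1 to 4, a mean of 1.19 ± 0.33 (SD, n = 4). It was higher in 4 of 4 replicates, and the exact sign-flip permutation test gave a two-sided p of 0.125, the smallest that 4 replicates allow. On the scale of CPM, counts scaled to library size without length, the mean difference was 1.14. With the median length over the coding transcripts of each gene it was 0.71, so its size depended on the length assumed. After DHPG the mean difference was 1.24 ± 0.23 (n = 4).

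The Ras pair differed in the opposite sense. Hras RNA was 7.0 to 13.6 times Nras RNA per length in basal slices, and Hras RPFs were 2.16 to 3.89 times Nras RPFs. The log2 ratio of RPF to RNA of Hras less that of Nras was -1.52, -2.22, -2.66 and -1.24 in replicates 1 to 4, a mean of -1.91 ± 0.65 (SD, n = 4), and it was lower in 4 of 4 replicates (exact sign-flip permutation test, two-sided, p = 0.125). On the CPM scale the mean difference was -1.25. With median transcript lengths it was -0.19, so the size of this difference rested on the transcript length assumed.

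A test of each gene's RPF to RNA ratio against the average gene was made in basal slices by edgeR's quasi-likelihood test, with coding length for RPF and transcript length for RNA. Of the 7 genes, 3 were higher and 3 were lower than the average gene at an adjusted p under 0.05. Over all 12828 genes tested, 39.4% were called higher and 39.3% lower, and the count for the 7 genes was close to that of all genes. Nras had the highest ratio of the 7 at a log2 value of 2.06 (standard error 0.16, edgeR adjusted p = 3.38e-06). Braf followed at 0.95 (standard error 0.13, edgeR adjusted p = 0.000136) and Map2k1 at 0.56 (standard error 0.10, edgeR adjusted p = 0.000987). Hras was at 0.14 and did not pass (edgeR adjusted p = 0.400, 95% interval -0.20 to 0.48). Mapk3 and Map2k2 were lower by nearly the same amount, at -0.61 (edgeR adjusted p = 0.00333) and -0.63 (edgeR adjusted p = 0.00227). Rasgrf1 was lowest at -1.04 (standard error 0.10, edgeR adjusted p = 1.65e-05).

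Single replicates show which of these ratios were steady. The log2 ratio per length, less that of the median gene, was -1.05, -1.08, -1.12 and -0.92 for Rasgrf1 in basal replicates 1 to 4, and 0.46, 0.53, 0.66 and 0.57 for Map2k1. These were the narrowest among the 7, with SDs of 0.086 and 0.083. Nras ranged from 1.78 to 2.35 and Braf from 0.75 to 1.21. Mapk3 ranged from -0.97 to -0.22, and Map2k2 from -0.91 to -0.22, with replicate 4 nearest to 0 for both. Hras lay on both sides of 0, at 0.33, -0.011, -0.31 and 0.54, so its replicates did not place it above or below the median gene.

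Most of these calls depended on the length assumed. When CPM were compared without length, Nras was at -0.051, Braf at -0.079 and Rasgrf1 at -0.16, none of which passed (edgeR adjusted p of 0.777, 0.599 and 0.195), and Mapk3 was at -0.32 (edgeR adjusted p = 0.0667). Hras was then lower at -1.31 (edgeR adjusted p = 7.91e-05). Map2k1 at 0.46 (edgeR adjusted p = 0.00375) and Map2k2 at -0.68 (edgeR adjusted p = 0.00187) were called in the same direction with and without length. With the median length over coding transcripts, Map2k2 was at -0.037 (edgeR adjusted p = 0.811). Rasgrf1 was then at 2.03 and called higher (edgeR adjusted p = 5.54e-07), the reverse of its call above. Map2k1, which has 1 annotated coding transcript, was the 1 gene of the 7 whose direction and call were kept under all 10 alternatives tried.

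**Figure D2:**
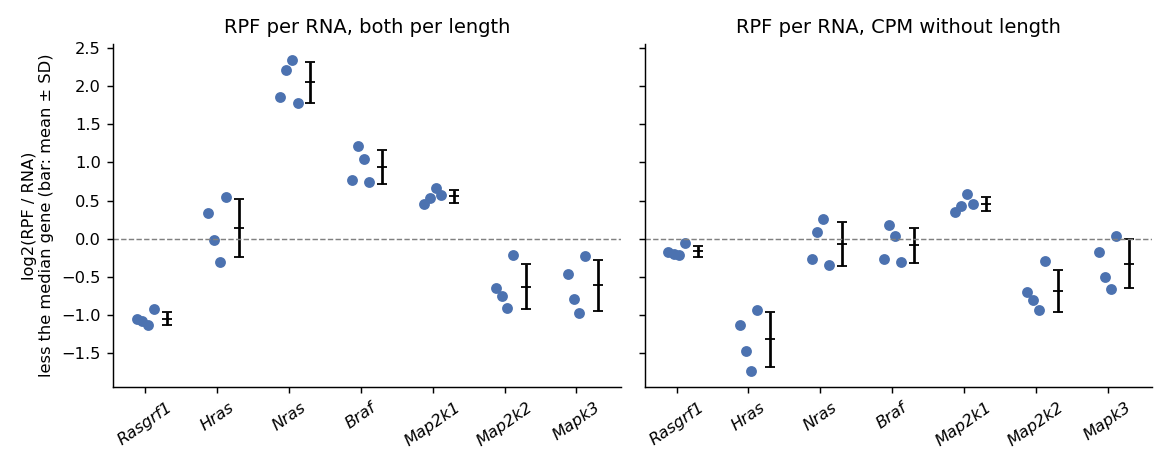
Log2 ratio of RPF to RNA in the 4 basal replicates that have both libraries, less the median gene, per length on the left and from CPM without length on the right, with the mean ± SD beside the points. Map2k1 lies above 0 and Map2k2 below 0 in both panels, while Nras, Braf and Rasgrf1 lie near 0 only in the right panel.

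The study asked which RNAs and footprints change within minutes of receptor activation. For these 7 genes, 0 passed the threshold in RNA (edgeR adjusted p under 0.01), 0 in RPF (under 0.05) and 0 in the RPF to RNA ratio (under 0.05). Calls were rare over all genes too, at 0.00773% of 12935 genes in RNA (1 gene), 0.22% of 13208 genes in RPF (29 genes) and 0% of 13320 genes in the ratio. The basal and DHPG libraries of all 7 genes overlapped in CPM in both assays, where groups did not overlap for 0.51% of all genes in RNA and 0.394% in RPF. At an unadjusted p under 0.05 there was 1 of the 7 in each comparison, against 8% (1037 genes), 10.8% (1421 genes) and 6.5% (871 genes) of all genes. Standard errors of the 7 log2 fold changes were 0.067 to 0.11 in RNA and 0.029 to 0.066 in RPF.

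Mapk3, encoding ERK1, had the largest RNA difference of the 7. Its RNA was at 124.8, 137.4, 161.8 and 101.2 CPM in basal replicates 1 to 4, and at 152.4, 178.1, 159.1, 123.6 and 111.7 CPM in DHPG replicates 1 to 5. Within pairs it was higher after DHPG in replicates 1, 2 and 4, by 0.29, 0.37 and 0.29 on the log2 scale, and differed by -0.024 in replicate 3. The groups overlapped, and DHPG replicates 4 and 5 lay below basal replicates 1 to 3. The fitted log2 fold change was 0.23 (standard error 0.075, 95% interval 0.075 to 0.38, unadjusted p = 0.00492 and adjusted p = 0.538 in edgeR). It ran from 0.14 to 0.32 over the alternatives, with adjusted p from 0.0115 to 0.9999, and never passed the RNA threshold of 0.01. The lowest adjusted p came from ComBat followed by DESeq2, at a log2 fold change of 0.22. That value lay close to 0.01 and under 0.05. Mapk3 footprints averaged 95.4 ± 7.02 CPM in the basal group and 94.04 ± 8.003 CPM after DHPG (SD, n = 5 each). Their pairs were between -0.078 and 0.012, and the fitted RPF log2 fold change was -0.024 (95% interval -0.097 to 0.050, edgeR adjusted p = 0.865). The RPF to RNA ratio of Mapk3 accordingly had a DHPG effect of -0.25 (standard error 0.077, 95% interval -0.41 to -0.094, edgeR unadjusted p = 0.00274, adjusted p = 0.682). Per length and less the median gene, that ratio was -0.46, -0.78, -0.97 and -0.22 in basal replicates 1 to 4 and -0.76, -1.18, -1.01 and -0.53 in their DHPG partners, lower in each pair, with the smallest step in replicate 3.

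Hras, a membrane-bound GTPase that switches Raf on, had the largest RPF difference. Its footprints were at 45.8, 44.5, 40.9, 54.98 and 53.7 CPM in basal replicates 1 to 5 and at 44.5, 43.9, 40.8, 43.2 and 48.2 CPM after DHPG. All 5 pairs were lower after DHPG, but by only 0.0026 to 0.041 on the log2 scale in 3 of them, since the log2 differences were -0.041, -0.018, -0.0026, -0.35 and -0.16. Replicate 4 gave most of the difference. The fitted RPF log2 fold change was -0.11 (standard error 0.049, 95% interval -0.21 to -0.0076, unadjusted p = 0.0355 and adjusted p = 0.420 in edgeR), and without replicate 4 it was -0.054. Hras RNA was at 129.1 ± 18.8 CPM (SD, n = 4) in basal slices and 121.2 ± 17.3 CPM (SD, n = 5) after DHPG, with a log2 fold change of -0.091 (95% interval -0.24 to 0.055, edgeR adjusted p = 0.779). The DHPG effect on its RPF to RNA ratio was -0.018 (edgeR adjusted p = 0.978).

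For Nras, the scarcer GTPase, basal RNA was at 25.2, 21.4, 17.6 and 19.9 CPM and DHPG RNA at 22.2, 22.9, 18.8, 17.0 and 18.7 CPM. Its pairs were split, with 2 of 4 higher, and the RNA log2 fold change was -0.067 (95% interval -0.29 to 0.16, edgeR adjusted p = 0.909). Nras RPFs were at 17.9 ± 2.40 CPM in basal slices and 18.5 ± 3.57 CPM after DHPG (SD, n = 5 each), higher in 3 of 5 pairs, with a log2 fold change of 0.075 (95% interval -0.059 to 0.21, edgeR adjusted p = 0.739). The intervals of Nras were the widest of the 7 in both assays.

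Rasgrf1, the exchange factor, was measured most tightly in RPF. Its RNA was at 731.7, 710.5, 776.1 and 649.4 CPM in basal slices and at 809.1, 692.1, 742.5, 749.8 and 642.8 CPM after DHPG. The RNA log2 fold change was 0.063 (95% interval -0.073 to 0.20, edgeR adjusted p = 0.847), with 2 of 4 pairs higher. In footprints, basal libraries were between 538.0 and 603.6 CPM and DHPG libraries between 552.2 and 590.1 CPM. The RPF log2 fold change was 0.023 (95% interval -0.036 to 0.082, edgeR adjusted p = 0.828).

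Braf RNA, which encodes the Raf kinase abundant in neurons, was at 98.2 ± 15.3 CPM (SD, n = 4) in basal slices and 103.1 ± 13.3 CPM (SD, n = 5) after DHPG, higher in 3 of 4 pairs. Its RNA log2 fold change was 0.089 (95% interval -0.069 to 0.25, edgeR adjusted p = 0.802). Braf RPFs were at 82.0 ± 2.64 and 79.0 ± 6.17 CPM (SD, n = 5 each), with a log2 fold change of -0.040 (95% interval -0.12 to 0.041, edgeR adjusted p = 0.781). The 5 RPF pairs of Braf lay on both sides of 0, from -0.14 in replicate 5 to 0.088 in replicate 3.

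Map2k1, the gene of MEK1, had RPFs at 438.8, 396.8, 421.6, 486.5 and 420.9 CPM in basal slices and at 397.3, 384.3, 401.4, 460.3 and 434.2 CPM after DHPG, lower in 4 of 5 pairs. The fitted difference in RPF was -0.057 on the log2 scale (standard error 0.030, 95% interval -0.12 to 0.0045, unadjusted p = 0.0686 and adjusted p = 0.510 in edgeR). With ComBat correction by replicate followed by DESeq2, Map2k1 RPFs passed at -0.057 (DESeq2 adjusted p = 0.0447), the 1 case among the 7 genes in which any alternative moved a DHPG result past its threshold. Map2k1 RNA was at 355 ± 39.8 CPM (SD, n = 4) and 340 ± 38.2 CPM (SD, n = 5), with a log2 fold change of -0.082 (95% interval -0.22 to 0.055, edgeR adjusted p = 0.787). For Map2k2, the gene of MEK2, RNA was at 89.6 ± 12.6 and 88.2 ± 7.43 CPM, with a log2 fold change of 0.024 (95% interval -0.13 to 0.18, edgeR adjusted p = 0.963). Map2k2 RPFs were at 51.4, 45.8, 48.5, 53.8 and 54.1 CPM in basal slices and at 49.1, 44.8, 48.4, 53.0 and 50.5 CPM after DHPG. They were lower in 5 of 5 pairs, by 0.0026 to 0.099 on the log2 scale, but the fitted log2 fold change of -0.041 did not pass (95% interval -0.13 to 0.048, edgeR adjusted p = 0.798).

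**Figure D3:**
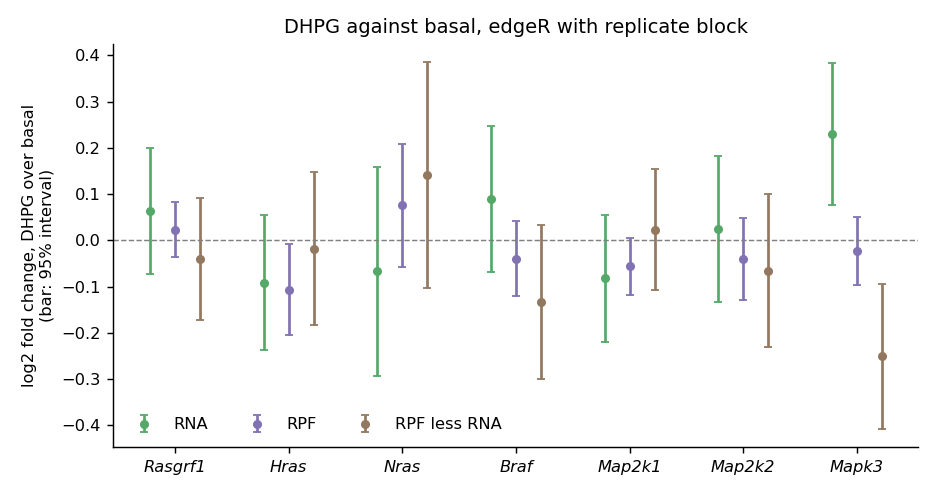
Log2 fold change of DHPG over basal for each gene in RNA, in RPF and in RPF less RNA, from edgeR with the replicate number as a block, with 95% intervals as bars. The intervals of Mapk3 in RNA (0.075 to 0.38) and in RPF less RNA, and of Hras in RPF, leave out 0 before adjustment for the number of genes tested, and those of the other values include it.

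**Figure D4:**
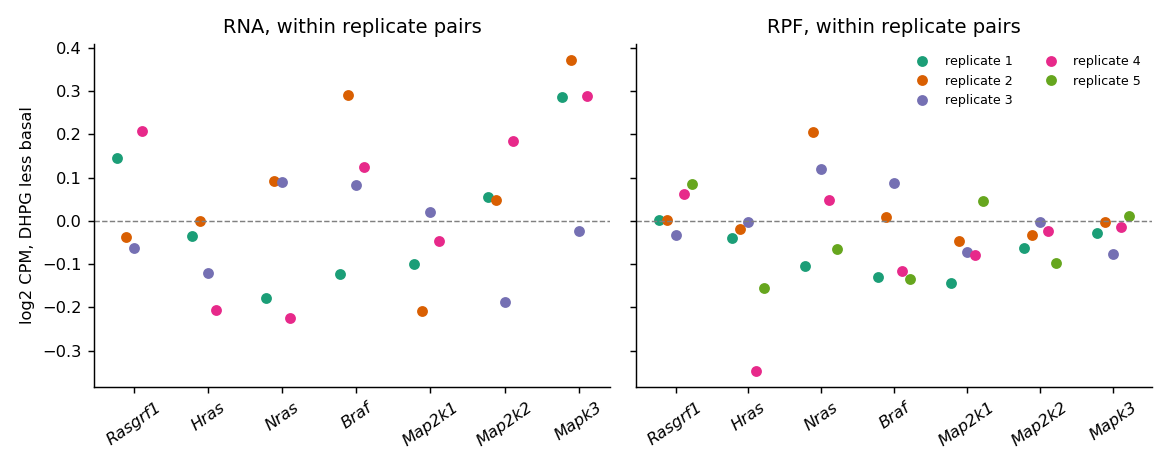
Difference in log2 CPM between the DHPG and the basal library of each replicate, by gene, RNA on the left (4 pairs) and RPF on the right (5 pairs). Mapk3 RNA lies above 0 in replicates 1, 2 and 4, and Hras RPF lies farthest below 0 in replicate 4.

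Replicate number held a larger raw share of the variance of these genes than DHPG did. It has more levels than treatment, so noise alone would also give it the larger share. The shares are therefore given beside those of the median gene. In RNA, replicate number took 48.7% (Rasgrf1) to 90.9% (Hras) of the variance of log2 CPM over the 8 paired libraries, against 75.4% for the median gene. In RPF it took 57.8% (Braf) to 96.5% (Mapk3) over 10 libraries, against 72.4% for the median gene. Treatment took 0.8% (Map2k2) to 21.8% (Mapk3) of the variance in RNA, where the median gene had 3.7%. In RPF treatment took 0.9% (Nras) to 16.4% (Hras), where the median gene had 3.8%.

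Markers of thalamus were higher after DHPG, and some lists of cell type markers also leaned to 1 side. Of 10 thalamus markers, none was at 0 in all libraries, and their summed level was 102.5 to 133.8 CPM in basal RNA and 123.6 to 172.5 CPM in DHPG RNA, 152.9 to 186.9 CPM in basal RPF and 153.5 to 248.4 CPM in DHPG RPF. In RNA, 7 of 7 tested had a log2 fold change above 0 (median 0.61) and 1 passed, against 0.00773% of all genes, and in RPF 9 of 9 were above 0 (median 0.43) and 6 passed, against 0.22% of all genes. The 8 endothelial markers went the other way, with 2 above 0 in RNA (median -0.14) and 0 above 0 in RPF (median -0.18), and 0 passed in either assay. They summed to 63.9 to 92.9 CPM in basal RNA and 55.4 to 70.3 CPM in DHPG RNA, and to 48.0 to 74.7 CPM in basal RPF and 47.1 to 69.3 CPM in DHPG RPF. The 8 oligodendrocyte markers summed to 2518 to 5417 CPM in basal RNA and 2896 to 6159 CPM in DHPG RNA, with 8 of 8 above 0 and 0 past the threshold. In RPF they summed to 4132 to 8534 CPM in basal and 4760 to 9600.2 CPM in DHPG libraries, with 7 of 8 above 0 and 1 past the threshold. Astrocyte and microglia markers were above 0 in 8 of 8 each in RPF (medians 0.053 and 0.073). In RNA, 6 of 8 and 4 of 8 were above 0, and 0 passed in either assay. Neuron, CA1, CA3 and dentate markers lay on both sides of 0 in both assays, and 0 passed. The part of these markers in the values of the 7 genes was not tested.

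Other genes of the pathway were followed as a list of 67, of which 66 were tested. In RNA, in RPF and in the RPF to RNA ratio, 0 of 66 passed the threshold for DHPG against basal. At an unadjusted p under 0.05, the RNAs of 3 were higher and 0 lower, where 5.2% of all genes were higher and 2.8% lower. The RPFs of 3 were higher and 3 lower, where 6.5% of all genes were higher and 4.2% lower. The DHPG effect on the ratio was higher for 0 and lower for 7 at that level, where 3% of all genes were higher and 3.5% lower. The median log2 fold change was 0.025 in RNA (37 of 66 above 0) and -0.017 in RPF (26 of 66 above 0). All genes tested had medians of 0.0068 with 52.1% above 0 in RNA and 0.0031 with 51.4% above 0 in RPF. For the 7 genes themselves the medians were 0.024 and -0.040.

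At the ends of the list stood genes of several roles. Mknk2, a kinase that ERK activates and that phosphorylates the cap-binding factor eIF4E, had the largest RNA log2 fold change at 0.32 (standard error 0.094, edgeR adjusted p = 0.527), higher in 4 of 4 pairs. Elk1, a transcription factor phosphorylated by ERK, followed at 0.18 (edgeR adjusted p = 0.566), also higher in 4 of 4 pairs. The lowest RNA values were -0.20 for Lamtor3, a scaffold for MEK1 and ERK1 (edgeR adjusted p = 0.672), and -0.13 for Rps6ka1, a ribosomal S6 kinase (edgeR adjusted p = 0.793). In RPF the highest were Rps6ka4 at 0.15 (edgeR adjusted p = 0.373, higher in 5 of 5 pairs) and the adaptor Shc2 at 0.15 (edgeR adjusted p = 0.420, higher in 4 of 5 pairs). The lowest were Rasgrp3 and Elk3, both at -0.16 with standard errors of 0.19 and 0.17 and basal RPF levels of 2.02 and 2.65 CPM. The DHPG effect on the RPF to RNA ratio was lowest for Mknk2 at -0.29 and Ksr2 at -0.24 (edgeR adjusted p of 0.709 and 0.706), and highest for Lamtor3 at 0.21 and Rps6ka1 at 0.12 (edgeR adjusted p of 0.790 and 0.911).

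**Figure D5:**
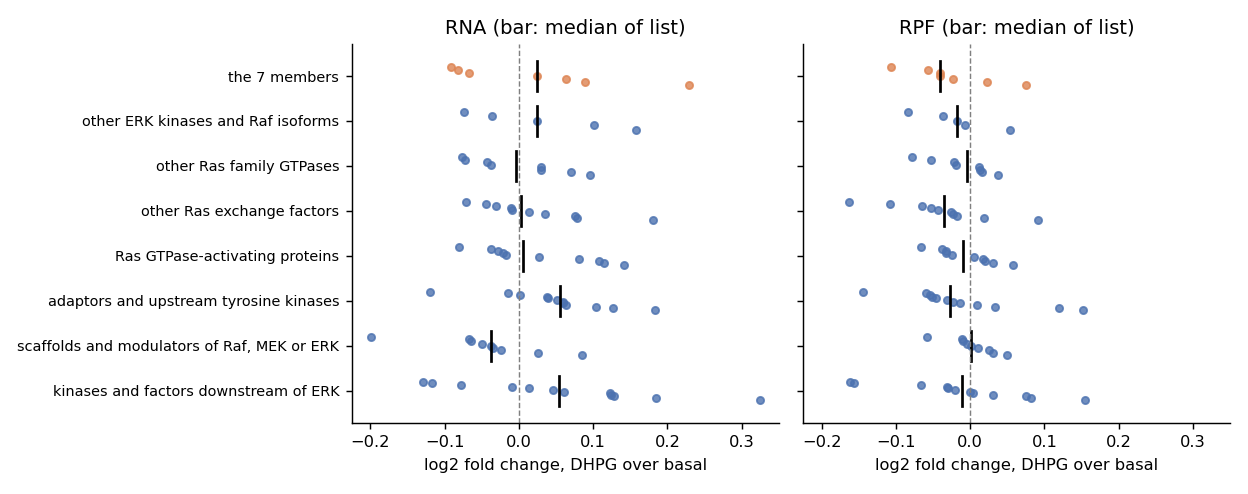
Log2 fold change of DHPG over basal in RNA (left) and RPF (right) for the 7 genes (orange) and for the other listed genes of the pathway by role (blue), with 1 point per gene and a black bar at the median of each list. The medians of all lists lie near 0 in both assays, and Mknk2 RNA at 0.32 lies farthest from it.

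The basal RPF to RNA ratio per length was also summarised by role, as counts and medians with no test between roles. Over all genes 39.4% were called higher and 39.3% lower, and over the whole list of 66 genes 22 were higher and 30 lower. Of the 8 other Ras family GTPases, 6 were higher than the average gene and 0 lower, with a median log2 ratio of 1.98, beside 2.06 for Nras and 0.14 for Hras. Of the 10 other exchange factors, some of which act on the GTPase Rap, 0 were higher and 7 lower. Their median was -1.17, beside -1.04 for Rasgrf1. Of 10 GTPase-activating proteins, which switch off Ras or, for some of them, Rap, 0 were higher and 8 lower, with a median of -1.27. Among scaffolds and modulators of Raf, MEK or ERK, 7 of 9 were higher and 1 lower. Other roles were mixed, with 4 higher and 7 lower of 12 adaptors and upstream tyrosine kinases, 3 higher and 6 lower of 12 kinases and factors downstream of ERK, and 2 higher and 1 lower of 5 other ERK kinases and Raf isoforms. At the ends of the list were Ywhaz, a 14-3-3 protein that binds Raf, at 3.58 and the GTPase Rap1a at 3.47, and Rapgef4, an exchange factor for Rap, at -4.06 and Rps6ka4 at -2.66. These values carry the same dependence on annotated lengths as those of the 7 genes.

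The genes whose levels moved most like each member across libraries were found by Pearson's r of log2 CPM, centred within each assay over 19 libraries, among 12691 genes. The values are descriptive, since all genes share the libraries, their depth and the replicate effects given above. Mapk3 was most like 2310061I04Rik (r = 0.946) and Rab3b (0.917), Map2k1 most like Utp14a (0.916) and Nsf (0.914), and Map2k2 most like Tubb4a (0.899). Braf was most like Magi2 (0.927) and Dixdc1 (0.893). Hras was most like Dnlz (0.913) and Rundc3a (0.896), Nras most like Golga7 (0.907) and Sel1l (0.902), and Rasgrf1 most like Ube2o (0.928) and Kif1a (0.862). Among the 7 genes themselves r was highest between Mapk3 and Map2k2 (0.791), and it was -0.14 between Map2k1 and Map2k2 and -0.31 between Hras and Nras.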

How the data were processed

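RNA-seq and ribosome profiling libraries of 19 samples were used. After clipping adapters and discarding reads of rRNA and tRNA, the authors mapped to mm10 and kept unique reads without duplicates by molecular identifier. They deposited RSEM's expected counts in whole numbers, for RPF on coding sequence trimmed by 30 bases at each end and for RNA on whole transcripts. In the tables, 12 columns matched no sample and were not used.

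Counts were tested with R 4.3.3 and edgeR 4.0.16 (quasi-likelihood F test, TMM, filterByExpr, Benjamini-Hochberg over all genes tested) with the replicate number as a block, because same-numbered libraries deviated together: correlations of their deviations from the group means were 0.27 to 0.72 in 4 RNA pairs and 0.26 to 0.52 in 5 RPF pairs. The DHPG RNA library of replicate 5 has no basal partner and so adds nothing to the blocked difference. The DHPG effect on the ratio was the interaction of library type and treatment. The DHPG thresholds were an adjusted p of 0.01 for RNA and 0.05 elsewhere. Log2 CPM used a prior count of 2. Lengths came from the GENCODE transcript with the longest coding sequence (98.9% of genes), which for the 7 genes is a transcript matched to RefSeq. The authors' own transcript models were not used here. Nothing in the labels says that replicates are separate cultures or animals, so p-values and intervals concern these pooled samples only. With the replicate block, both rest on the residual spread left after differences between replicates are removed. The strand setting of the authors' counting is not given in the sources used here.

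The genes and lists were chosen with earlier results of these data known. Named were the 7 genes, pathway genes past a threshold, and the 2 pathway genes at each end of each comparison. Single values of the members' paralogs outside the 7, which the rule also covered, are not reported here, nor are some other items. Alternatives were DESeq2 1.42.0 size factors, other filters and thresholds, no block, DESeq2 with the block, ComBat by replicate (sva 3.50.0) with DESeq2 after the study's methods, limma 3.58.1, other lengths, DHPG libraries for the ratio, and each replicate left out. The steps were tested on simulated data.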

Additional observations from a re-analysis of the deposited data

Results flagged for a closer look

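Levels of the 7 genes were screened for single libraries far from their group, by the gap to the nearest library over the range of the group. Of 28 groups, 0 held such a library, where chance gives about 1.4.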

How the results depend on the processing

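Of the values of the 7 genes, 290 were counted as keeping their direction and side of the threshold under the alternatives tried. Another 14 changed sign and 4 crossed the threshold with the same sign. A value without an adjusted p was counted as not passing. DESeq2 with the block gave none for the RPFs of Mapk3, Map2k2, Braf, Hras and Nras. ComBat with DESeq2 gave none for Nras in RNA and RPF. Alternatives that changed only the threshold reused the main fit. Except for the lengths, the cause of the changes was not tested. Of the 4, Mapk3 and Rasgrf1 in the ratio without length and Map2k2 with median transcript length fell short, and Map2k1 RPF newly passed under ComBat with DESeq2. The sign changed for Map2k2 RNA without the replicate block (-0.022) and without replicate 4 (-0.032). For the DHPG effect on the ratio, it changed for Map2k1 without the replicate block (-0.0031), without replicate 2 (-0.022), without replicate 5 (-0.0015) and in limma (-0.0019), and without replicate 4 for Hras (0.0055) and Rasgrf1 (0.0038). All of these were near 0 and not called. With each replicate left out, the ranges were -0.032 to 0.097 for Map2k2 RNA and, for the effect on the ratio, -0.022 to 0.052 for Map2k1, -0.070 to 0.0055 for Hras and -0.077 to 0.0038 for Rasgrf1. For the basal ratio without length, it changed for Braf (-0.079, adjusted p = 0.599 in edgeR), Hras (-1.31, 7.91e-05) and Nras (-0.051, 0.777), and with median transcript length for Hras (-0.45, 0.0206), Nras (-0.26, 0.147) and Rasgrf1 (2.03), where the lengths themselves made the change. Braf and Nras thus lost their calls and Hras gained one in the lower direction. The call of Rasgrf1 turned from lower to higher with median transcript length (adjusted p = 5.54e-07 in edgeR).

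Counts over all genes moved more. Without a filter on low counts 7 RNAs, 96 RPFs and 6 ratios passed, and with at least 10 counts in every library 0 RNAs passed. Without the replicate block 0 RNAs and 0 RPFs passed, against 1 and 29 in the paired fit, and the block changed no call of the 7 genes. DESeq2 with the block gave 0 RNAs, and an adjusted p of 0.01 left 8 RPFs. ComBat with DESeq2 gave 100 RNAs and 427 RPFs, including 1 listed pathway gene in RNA (Mknk2, 0.33, adjusted p = 0.00826 in DESeq2) and 1 in RPF (Cnksr2, -0.061, adjusted p = 0.00726 in DESeq2). With replicates left out, 0 to 22 RNAs, 3 to 71 RPFs and 0 to 8 ratios passed. The RNA count was 22 without replicate 2 and 0 without replicate 3, and the RPF count was 10, 3, 71 and 50 without replicates 1, 2, 3 and 5. Counting error limits Nras most, with as few as 98 counts in a library.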
